A study of Mus musculus with 10 samples.

Results

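The cytosolic ribosomal protein genes, whose products build the large and the small subunit of the ribosome, were examined in kidneys of mice that carry an activating RagC mutation. The genes were taken by symbol. They are Rpl or Rps followed by a digit, plus *Rplp0*, *Rplp1*, *Rplp2*, *Rpsa* and *Fau*, without *Rps6k* kinases, pseudogene symbols ending in -ps and symbols with like endings. Of the 13837 genes in the table, 120 symbols began this way, and 24 pseudogene symbols, 8 like endings and 7 *Rps6k* kinases were left out. Of the 81 genes that remained, *Rps19bp1*, *Rps23rg1* and *Rpl37rt* were set apart because they are not known as standard subunit genes. The other 78 genes, 46 of the large and 32 of the small subunit, are called members here, and all 78 passed the filter on low values.

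Whole kidneys came from mice of 3 months, 5 labelled RagC S74N (+/+) and 5 labelled RagC S74N (KI/+), with 1 library per mouse. In the KI/+ mice, 1 allele of *Rragc* carries a substitution of serine 74 to asparagine that was introduced into exon 1 in the germ line, so every cell type of the kidney carries it, and the +/+ mice are wild type for this site. The libraries are of the QuantSeq 3′ type, which primes at the poly(A) tail. A transcript is counted by its 3′ end whatever its length, so its length does not weight its count. Near-identical copies of a gene can still make counts of different genes hard to compare. The level of *Rragc* cannot show which allele is present. It was 285.5 ± 42.3 (SD, n = 5) normalized counts in +/+ and 215.9 ± 23.6 (SD, n = 5) in KI/+ mice, a log2 fold change of -0.40 ± 0.12 (SE) that missed the threshold (limma, Benjamini-Hochberg adjusted p = 0.0678).

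RagC is a small GTPase that, with its partner and amino acids present, brings the kinase complex mTORC1 to the lysosome. Ribosomal proteins are made in step with one another, and their messages belong to the TOP class, which begin with a C followed by a run of pyrimidines. Through this start, mTORC1 controls how strongly the messages are translated, by way of the RNA-binding protein Larp1. The transcript counts described here measure message levels and not translation. In whole tissue, a lower count cannot distinguish fewer cells of a type from less RNA per cell.

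Libraries and mice differed in ways that could bear on the members. The numbers in the library codes were split here at their widest gap into 2 runs. The first holds 2 +/+ mice and 1 KI/+ mouse, and the second 3 +/+ and 4 KI/+ mice. A smaller gap within the second run sets the code of KI/+ replicate 5 apart, and no other split was tested. What the codes stand for is not given in the sources used here, and the sets are called the first and the second code run. Reads on genes numbered from 6501552 to 7996087 per library. Transcripts of the mitochondrial genome took 27.7% ± 2.41 (SD, n = 5) of reads in +/+ and 25.2% ± 1.25 (SD, n = 5) in KI/+ kidneys (two-sided exact permutation test, p = 0.0952). Within the second code run these shares were 28.7% to 30.1% in +/+ and 23.9% to 25.8% in KI/+ mice. All 8 markers of the proximal tubule, the main cell type of the kidney cortex, were in the table, and their summed level was 283700 to 368420 normalized counts in +/+ and 338460 to 422450 in KI/+ mice. In this list *Slc22a6* was called higher (log2 fold change 0.52) and *Slc5a2* lower (-0.93) in KI/+. Of B cell and plasma cell markers, 3 of 8 were in the table, and the B cell genes *Cd79a*, *Cd79b* and *Ms4a1* were not. The 3 were above 0, with a median log2 fold change of 1.11, *Igkc* was called higher, and their summed level was 451 to 1346 normalized counts in +/+ and 1108 to 5424 in KI/+ mice. The summed level of the markers of the loop of Henle and distal tubule was 30151 to 39448 normalized counts in +/+ and 14771 to 22338 in KI/+ mice. All 5 of these markers had lower means in KI/+, and 3 of them (*Umod*, *Slc12a3* and *Pvalb*) passed the threshold in limma. The part of these differences in the results below was not tested.

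The start sites of members were read from RefSeq promoters on GRCm38.p6, a different build from that of the counts. Of the 78 members, 58 matched by symbol, and among the others were *Rpl8*, *Rpl29* and *Rps20*. A TOP-like stretch was searched on the strand of the gene as a C followed by at least 4 bases that are each C or T, starting within 10 bases of the annotated start. It was found in 35 of the 58 members (60.3%), in 37.1% of all tested genes with an entry and in 34.4% of all promoters. Directly at the annotated start it was found in 14 of the 58 members (24.1%) and in 3.01% of all promoters. The sequences below run from 10 bases before to 20 bases from the annotated start, on the strand of the gene, with the stretch in capitals. They are shown for the entries of members that passed the threshold in any fit described below, and for *Rps6*, *Fau* and *Rplp2*.
Rpl15 (chr14:18270967-18270996, minus strand): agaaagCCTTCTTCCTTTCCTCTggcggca
Rpl14 (chr9:120571507-120571536, plus strand): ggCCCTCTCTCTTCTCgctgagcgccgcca
Rpl18 (chr7:45718061-45718090, plus strand): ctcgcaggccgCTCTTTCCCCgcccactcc
Rpl27a (chr7:109519185-109519214, plus strand): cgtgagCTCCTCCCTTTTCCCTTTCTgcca
Rpl24 (chr16:55966265-55966294, plus strand): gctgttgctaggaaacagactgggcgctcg
Rpl41 (chr10:128549149-128549178, minus strand): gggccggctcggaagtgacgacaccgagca
Rps28 (chr17:33824543-33824572, minus strand): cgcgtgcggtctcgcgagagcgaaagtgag
Rps6 (chr4:86857348-86857377, minus strand): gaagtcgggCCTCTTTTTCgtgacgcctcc
Fau (chr19:6057937-6057966, plus strand): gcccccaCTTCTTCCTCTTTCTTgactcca
Rplp2 (chr7:141447641-141447670, plus strand): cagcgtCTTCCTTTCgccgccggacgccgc

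In these windows *Rpl15*, *Rpl14*, *Rpl18* and *Rpl27a* held a long pyrimidine stretch, and *Rpl24*, *Rpl41* and *Rps28* held none. The median log2 fold change between genotypes was 0.04 in the 35 members with a stretch, 0.05 in the 23 with an entry and no stretch, and 0.06 in the 20 with no entry. A match depends on where the start was annotated, and the window without a match says only that these letters were not found there.

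Members were among the abundant transcripts of the kidney. Their mean over the 10 mice ranged from 222.2 normalized counts for *Rpl10* to 10089 for *Rplp1*, with a median of 2815, where the median of all 13837 genes was 97.6. In the order of all genes by mean, 60 of the 78 were among the first 500 and 71 among the first 1000. Among the most abundant were *Rplp1*, *Rps29*, *Rpl23*, *Rps14* and *Rpl27a*, and the 4 least abundant were *Rps27*, *Rps23*, *Rpl13a* and *Rpl10*. Neighbours in this order overlapped between mice. *Rpl23* had 6580 to 6946 normalized counts in +/+ mice and *Rps14* 5506 to 7647. The 24 pseudogene symbols took 0.00999% ± 0.00114 (SD, n = 5) of reads in +/+ and 0.0106% ± 0.000558 (SD, n = 5) in KI/+ mice. Because the aligner allowed several hits per read and ribosomal protein genes have many near-identical copies, levels of single members are uncertain. How many reads copies took was not tested.

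Members varied together from mouse to mouse. After the genotype means were removed, the median Pearson correlation between pairs of members over the 10 mice was 0.30, and it was 0.30 within the large subunit, 0.26 within the small subunit and 0.30 between subunits. Over the 9136 genes averaging 50 or more normalized counts it was -0.0002. These genes were not matched to the members by level. The points share the same 10 libraries and their scaling, and differences between the code runs were not removed. How much of the correlation comes from the code run or the scaling was not tested. The first principal component of the members held 46.9% of their variance within genotypes. The same share was not computed for other genes. The library of +/+ replicate 1 was the highest, with a median deviation of its members of 0.12 on the log2 scale from the mean over all mice, and +/+ replicate 3 was the lowest with -0.14. In the KI/+ libraries this deviation ranged only from 0.01 to 0.07.

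**Figure D1:**
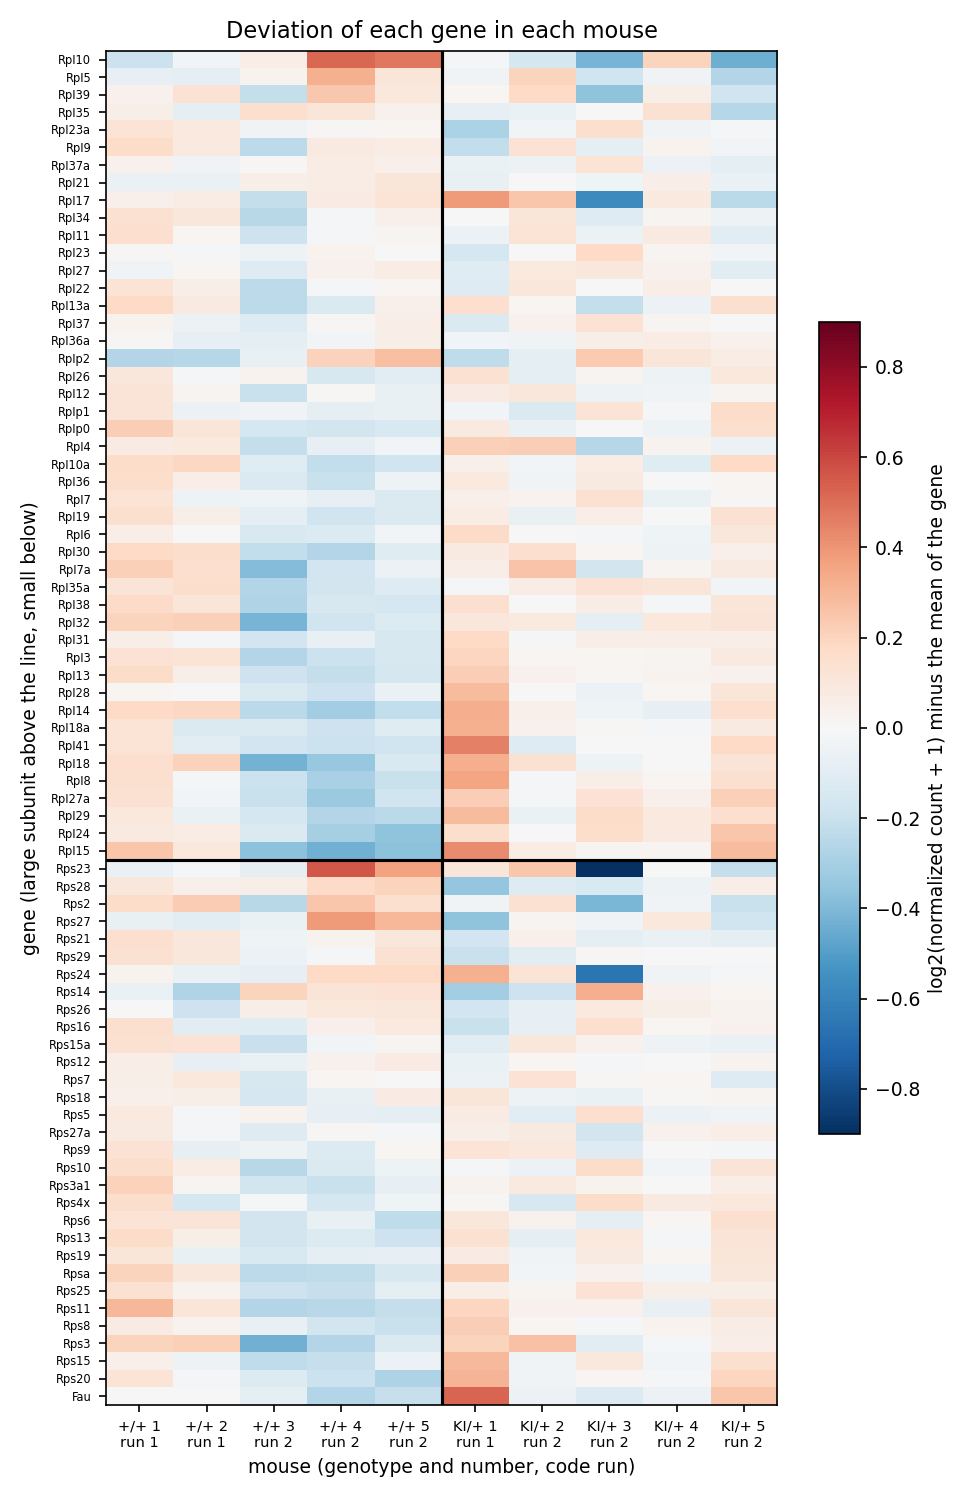
Heat map of 77 of the 78 members (rows, ordered by their change within each subunit, large above the line) in the 10 mice (columns, by genotype and code run), coloured by log2(normalized count + 1) minus the mean of the gene over all mice, with limits at -0.9 and 0.9. The 3 +/+ mice of the second code run are low for many members, and *Rpl10*, *Rps23*, *Rps24* and *Rpl17* depart from this pattern.

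The comparison between genotypes asks whether a germline activating RagC allele goes along with a different level of ribosomal protein messages. No member passed the threshold. In a limma fit of log2(value + 1) over 13197 genes, with Benjamini-Hochberg adjustment at 0.05, 0 of the 78 members were called, where 3.69% of all tested genes were (1.67% higher and 2.02% lower in KI/+). On recovered reads 0 members were called by edgeR, which called 3.64% of genes, and 0 by DESeq2, which called 4.91%. At an unadjusted p under 0.05 there were 8 members (10.3%), where 15.4% of all genes met it. Of these, *Rpl15*, *Rpl24*, *Rpl27a*, *Rpl29*, *Rpl8* and *Rps15* had higher means in KI/+, and *Rpl10* and *Rps28* lower means. The smallest adjusted p was 0.151, for *Rpl29*. No member had values that did not overlap between the genotypes over all 10 mice, where 2.29% of genes were higher and 2.71% lower without overlap.

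The precision of these values allows limits on the size of a change. The 95% interval of the log2 fold change reached from 0.15 to 0.38 to each side of the estimate, with a median of 0.18. In 75 of the 78 members the whole interval lay within 0.5 on the log2 scale to either side of 0, a 1.41-fold change. The exceptions were *Rpl15*, with an upper bound of 0.60, and *Rpl10* and *Rps23*, with lower bounds of -0.65 and -0.68.

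As a group, the large subunit genes lay slightly above 0 and the small subunit genes less so. The median log2 fold change was 0.06 in the 46 large subunit genes, of which 36 were above 0, and 0.02 in the 32 small subunit genes, of which 18 were above 0. Over all tested genes the median was 0.0005 and 50.1% were above 0. The difference between the medians, large minus small, was 0.04. This offset between subunits kept its sign in all 23 alternative settings and ranged from 0.02 to 0.06. Many of these settings could not change it. TMM and nuclear scaling shift both medians alike, and filter, trend and variance settings leave the fold changes as they are. The same range was reached when a mouse was left out. The medians themselves depended on the scaling. With quantile normalization they were -0.0001 for the large and -0.04 for the small subunit, and per reads on the nuclear genome they were 0.02 and -0.02, with a median of all genes of -0.04.

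**Figure D2:**
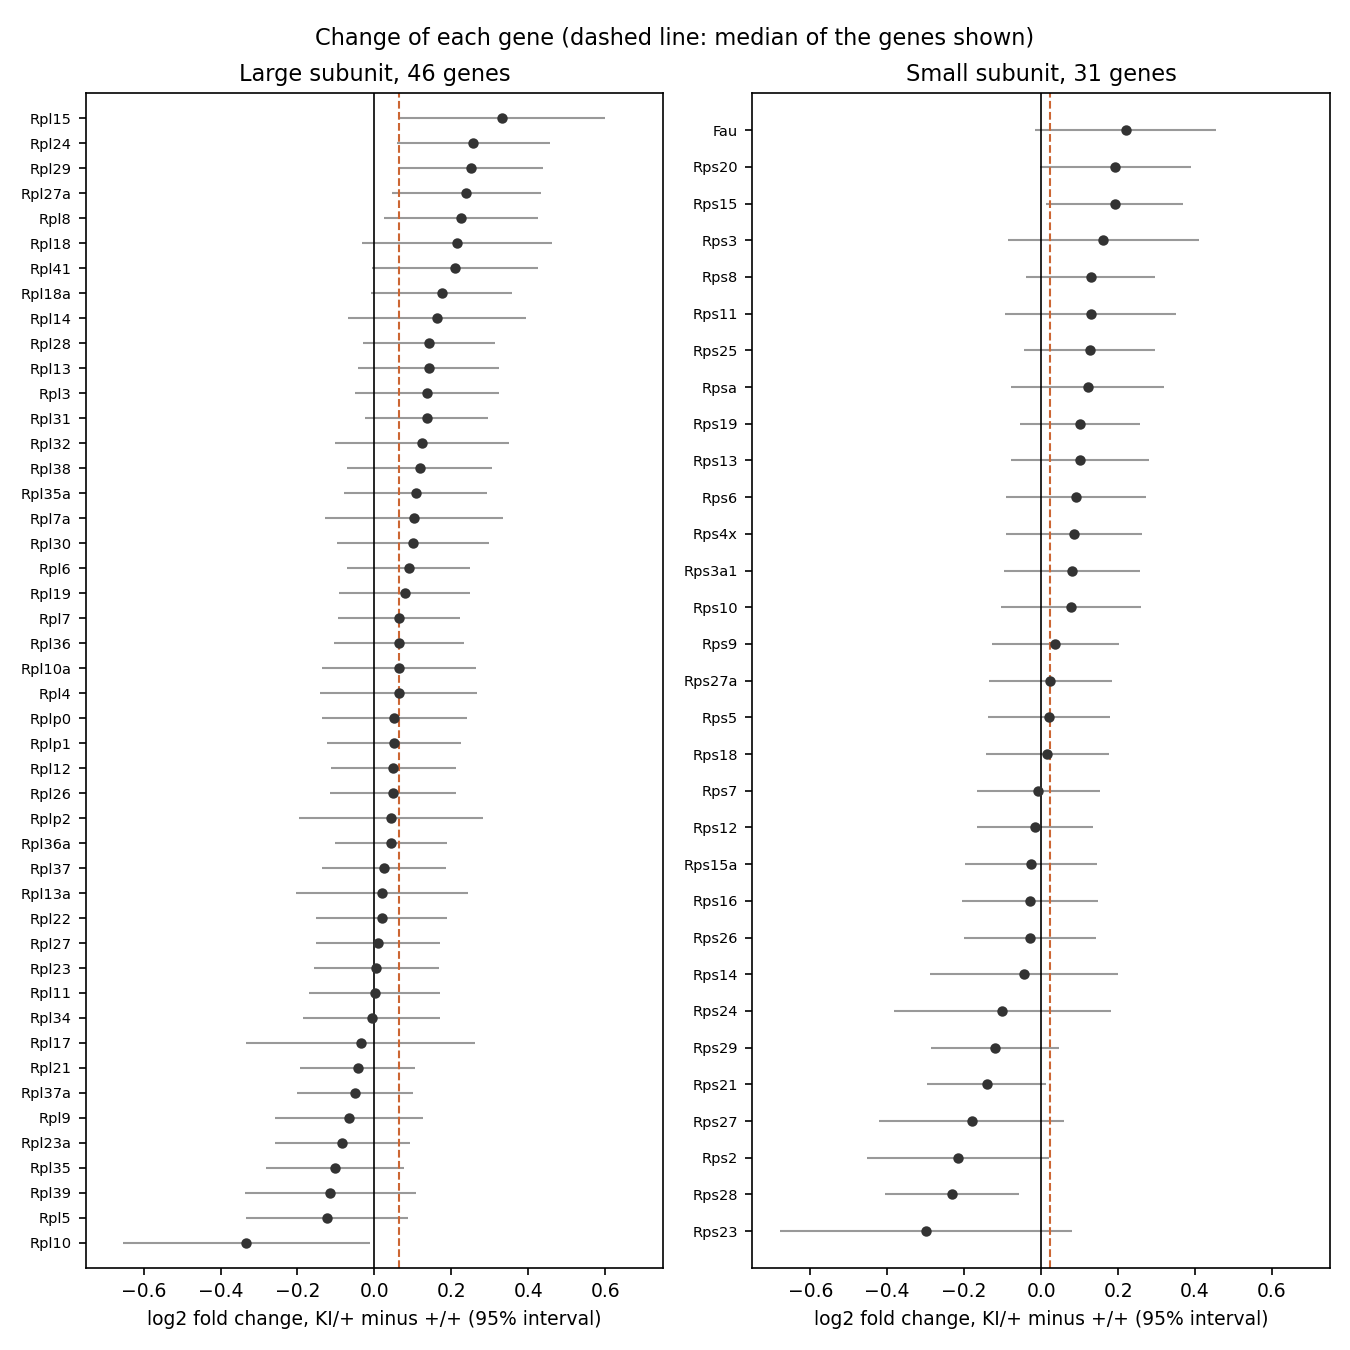
Log2 fold change (KI/+ minus +/+) of each member with its 95% interval from limma, for the 46 large subunit genes (left) and 31 of the 32 small subunit genes (right), with the median of the genes shown as a dashed line. Most intervals include 0, and the medians lie at 0.06 and 0.02.

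The large subunit genes with the highest fold changes were *Rpl15*, *Rpl24*, *Rpl29* and *Rpl27a*. *Rpl15*, a core protein of the large subunit, had 2456, 2214, 1600, 1532 and 1605 normalized counts in +/+ and 2774, 2169, 2103, 2109 and 2519 in KI/+ mice. The first 2 +/+ mice, which belong to the first code run, lay within the range of the KI/+ mice and the other 3 below it. Its log2 fold change was 0.33 ± 0.13 (SE; limma, Benjamini-Hochberg adjusted p = 0.198). *Rpl24*, which takes part in a bridge between the subunits, had 2202, 2177, 1904, 1687 and 1622 normalized counts in +/+ and 2323, 2080, 2316, 2201 and 2470 in KI/+ mice. The ranges overlapped, since the lowest KI/+ mouse lay below the 2 highest +/+ mice. *Rpl29* had 4523, 4047, 3796, 3515 and 3576 normalized counts in +/+ and 5150, 4048, 4747, 4483 and 4693 in KI/+ mice, and only the highest +/+ mouse reached into the range of the KI/+ mice. *Rpl27a* had a log2 fold change of 0.24 ± 0.09 (SE; limma, Benjamini-Hochberg adjusted p = 0.200), with means of 5678 ± 729 and 6672 ± 482 normalized counts (SD, n = 5 each).

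At the other end of the large subunit were *Rpl10*, *Rpl5*, *Rpl39* and *Rpl35*. *Rpl10*, which joins late in assembly and is needed for the subunits to meet, had 189.9, 213.4, 225.7, 310.9 and 302.2 normalized counts in +/+ and 215.3, 194.2, 161.8, 249.1 and 159.6 in KI/+ mice. The ranges overlapped widely, and its log2 fold change was -0.33 ± 0.15 (SE; limma, Benjamini-Hochberg adjusted p = 0.300). *Rpl10* is the member with the lowest counts and has processed copies in the genome. *Rpl39* (log2 fold change -0.11 ± 0.10, SE) lines the tunnel through which the new protein leaves, and *Rpl35* (-0.10 ± 0.09, SE) lies at its exit.

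In the small subunit, *Fau*, *Rps20*, *Rps15* and *Rps3* had the highest fold changes. *Fau*, which encodes a ubiquitin-like protein fused to a protein of the small subunit, had 1651, 1658, 1557, 1375 and 1431 normalized counts in +/+ and 2369, 1592, 1518, 1592 and 1968 in KI/+ mice. KI/+ replicates 1 and 5 were the highest of all mice, and the other 3 KI/+ mice lay within the +/+ range. *Rps20*, a protein of the subunit's head, had 5690, 5164, 4799, 4554 and 4311 normalized counts in +/+ and 6461, 5094, 5294, 5189 and 5978 in KI/+ mice. *Rps15* had a log2 fold change of 0.19 ± 0.09 (SE; limma, Benjamini-Hochberg adjusted p = 0.278), and *Rps3*, at the site where the message enters, of 0.16 ± 0.12 (SE).

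The lowest fold changes of the small subunit were those of *Rps23*, *Rps28*, *Rps2* and *Rps27*. *Rps28* had 2482, 2387, 2401, 2605 and 2649 normalized counts in +/+ and 1814, 2132, 2102, 2243 and 2412 in KI/+ mice. Only KI/+ replicate 5 reached into the +/+ range, and the log2 fold change was -0.23 ± 0.08 (SE; limma, Benjamini-Hochberg adjusted p = 0.157). *Rps23*, which lies near the decoding site, spread widely, from 316.4 to 496.3 normalized counts in +/+ and from 180.8 to 401.4 in KI/+ mice. *Rps2* had a log2 fold change of -0.22 ± 0.11 (SE) and *Rps27* of -0.18 ± 0.11 (SE), and both missed the threshold.

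Members with special roles showed small differences. The 4 genes of the stalk that recruits translation factors, *Rplp0*, *Rplp1*, *Rplp2* and *Rpl12*, had log2 fold changes between 0.04 and 0.05, with standard errors from 0.08 to 0.11. *Rplp2* differed from the other stalk genes in its pattern over mice. It had 1482 and 1491 normalized counts in the +/+ mice of the first code run and 1702 to 2145 in those of the second. *Rpl5* and *Rpl11*, which form a particle with the 5S RNA that binds the p53 regulator Mdm2 when assembly fails, had log2 fold changes of -0.12 ± 0.10 and 0.001 ± 0.08 (SE).

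*Rps6*, a protein that S6 kinases downstream of mTORC1 phosphorylate, had 1385, 1380, 1136, 1216 and 1089 normalized counts in +/+ and 1371, 1311, 1202, 1289 and 1409 in KI/+ mice. The ranges overlapped, with a log2 fold change of 0.09 ± 0.09 (SE; limma, Benjamini-Hochberg adjusted p = 0.700). Phosphorylation is not measured by these data. *Rps27a*, which is made as a fusion with ubiquitin, had a log2 fold change of 0.02 ± 0.08 (SE). Genes of the small subunit were also listed by position, with *Rps28* placed among the platform genes. In these lists 1 of 5 platform genes, 5 of 7 head genes and 2 of 3 beak genes were above 0. None of them passed the threshold, and the counts depend on how genes were placed.

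The code run changed what passed. With the code run as a covariate, 10 members were called (limma, Benjamini-Hochberg adjustment), where 6.30% of all genes were (3.29% higher and 3.02% lower in KI/+). *Rpl15*, *Rpl24*, *Rpl29*, *Rpl18*, *Rpl27a*, *Rpl8*, *Rpl41*, *Rpl14* and *Rps20* were higher in KI/+ and *Rps28* was lower, so 8 of the 46 large and 2 of the 32 small subunit genes passed. Those outside the lists above (*Rpl8*, *Rpl14*, *Rpl18* and *Rpl41*) are named after their values were seen. *Rpl15* had a log2 fold change of 0.42 ± 0.08 (SE) in this fit (adjusted p = 0.00263) and *Rpl29* of 0.30 ± 0.07 (SE; adjusted p = 0.0160). *Rpl41*, which encodes a very short peptide, had the largest adjusted p of the 10, 0.0491. The medians were 0.10 for the large and 0.04 for the small subunit.

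**Figure D3:**
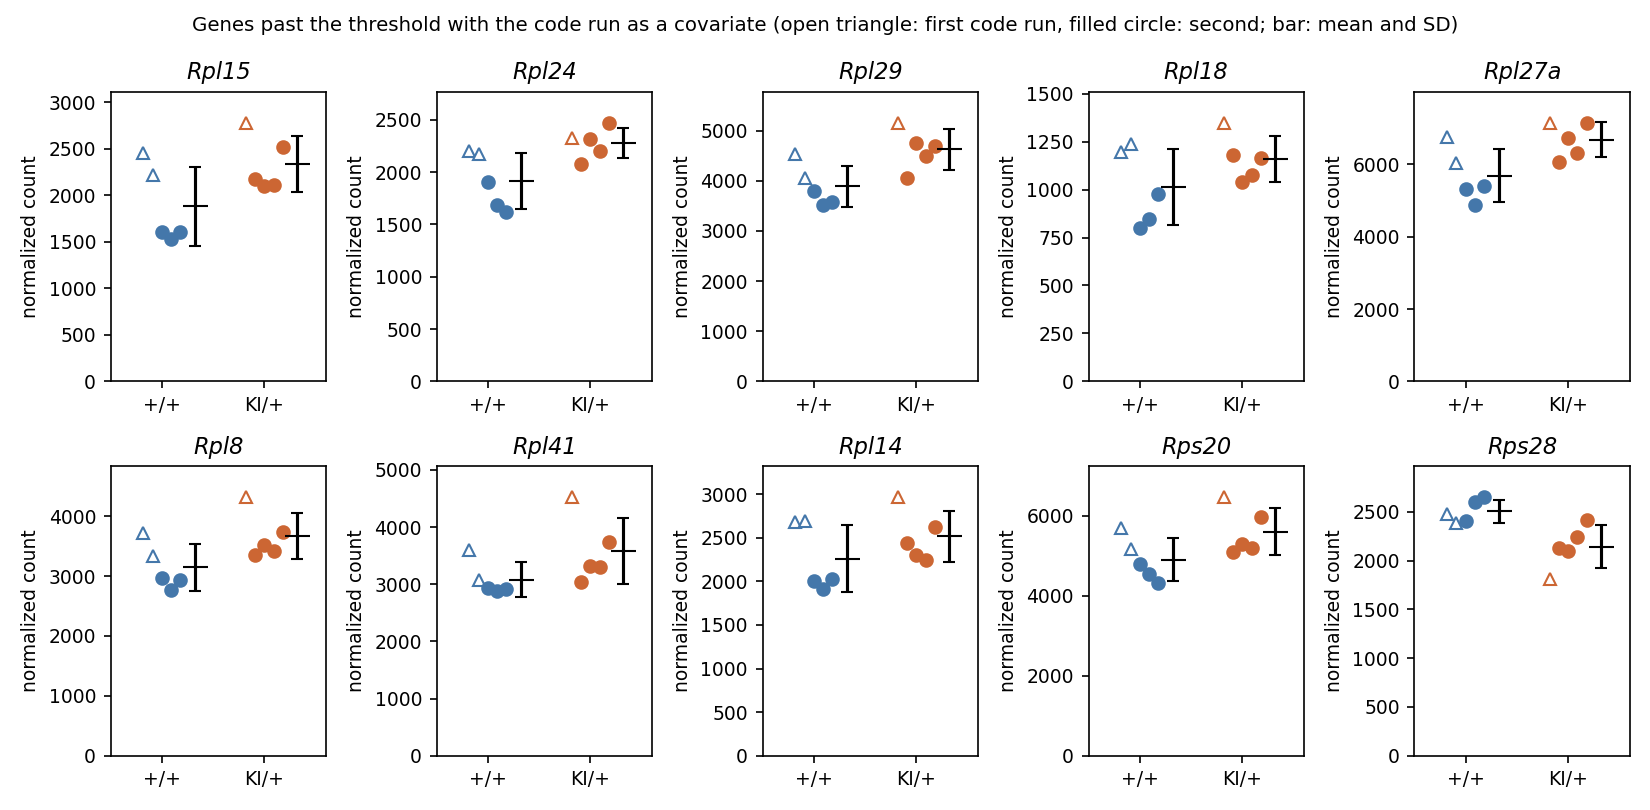
Normalized counts of the 10 members that passed the threshold with the code run as a covariate, per mouse (open triangles for the first code run, filled circles for the second), with the mean and SD of each genotype as a bar beside the points. In *Rpl15* the 3 filled +/+ points lie at 1532 to 1605 and the 4 filled KI/+ points at 2103 to 2519, while the open +/+ points reach 2456.

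Within the second code run alone, with 3 +/+ and 4 KI/+ mice, *Rpl15* (log2 fold change 0.49, adjusted p = 0.00996) and *Rpl24* (0.38, adjusted p = 0.0437) were called by limma with Benjamini-Hochberg adjustment, where 2.62% of all genes were. In this run 31 of the 78 members had KI/+ values that all lay above the +/+ values, 21 of the large and 10 of the small subunit, and 0 members had values that all lay below. Among all tested genes 8.55% lay wholly above and 7.89% wholly below. Of the 77 mitochondrial ribosomal protein genes, 15 lay wholly above and 2 wholly below. These counts were not repeated per reads on the nuclear genome. All 9 genes that were higher with the covariate are among the 31, as are *Rplp0* of the stalk and *Rps3* and *Rps15* of the small subunit.

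The first code run was less one-sided, though it holds only 1 KI/+ mouse and members of a library are not separate observations. Its 1 KI/+ mouse lay above the mean of its 2 +/+ mice in 39 of 78 members, 25 of 46 large and 14 of 32 small, while in the second run the KI/+ mean was above the +/+ mean in 60 members, 38 large and 22 small. Of all tested genes, 49.3% had a log2 fold change above 0 in the second run. In 33 members KI/+ was above +/+ in both runs. The shares over all genes for the first run and for both runs were not computed. The mean of the +/+ mice of the first run was above that of the second in 63 of 78 members. In the fit with genotype and run, 25.6% of members and 48.8% of all tested genes were higher in the second run. The effect of the run itself was called for *Rpl14*, *Rpl15* and *Rpl18*, lower in the second run, where 0.538% of all genes were. The difference of the genotype effect between runs was called by limma for 0 members and 0.00% of genes. The 5 members with an unadjusted p under 0.05 were *Rpl23a*, *Rpl35a*, *Rpl32*, *Rpl30* and *Rpl9*, where 3.40% of all genes met it, and they were named after their values were seen. With 1 KI/+ mouse in the first run, this difference was measured with little precision, with a median standard error of 0.16 on the log2 scale for members.

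The share of reads on members gives the same contrast per library. Members took 3.72%, 3.58%, 3.10%, 3.31% and 3.36% of the reads on genes in the +/+ mice and 3.41%, 3.62%, 3.52%, 3.60% and 3.64% in the KI/+ mice. The means were 3.41% ± 0.244 and 3.56% ± 0.0928 (SD, n = 5 each), and they differed by 0.14 percentage points, less than the SD of the +/+ mice. In the second code run the shares did not overlap, with 3.10% to 3.36% in +/+ and 3.52% to 3.64% in KI/+ mice. As a share of the reads on nuclear genes, which leaves out the mitochondrial reads, they did overlap in this run, with 4.43% to 4.74% in +/+ and 4.67% to 4.90% in KI/+ mice.

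The ratio of reads on large to reads on small subunit genes does not depend on the scaling of a library. It was 1.32, 1.35, 1.28, 1.27 and 1.27 in +/+ and 1.40, 1.35, 1.33, 1.34 and 1.34 in KI/+ mice, with means of 1.30 ± 0.0354 and 1.35 ± 0.0265 (SD, n = 5 each). Over all mice the genotypes overlapped through +/+ replicate 2, of the first code run, which lay above the lowest KI/+ mice. Within the second run the ratio was 1.27 to 1.28 in +/+ and 1.33 to 1.35 in KI/+ mice.

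**Figure D4:**
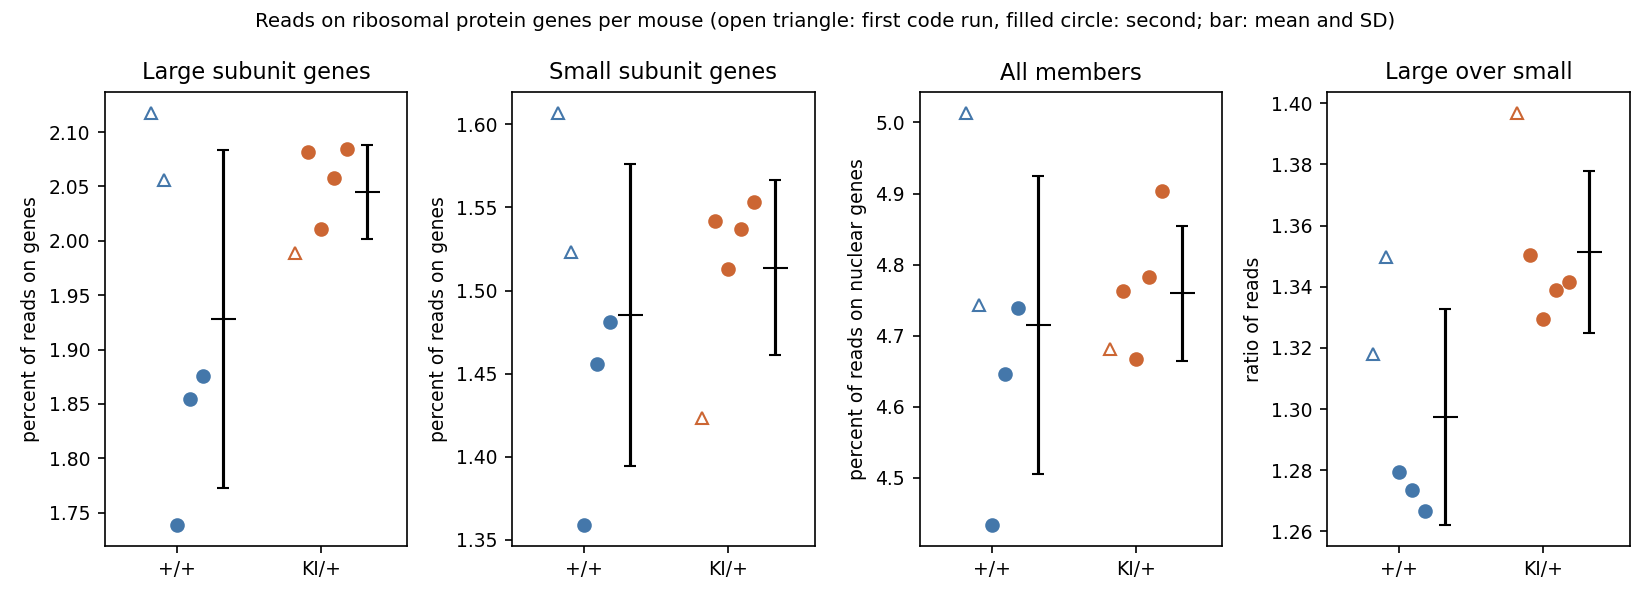
Percent of reads on large and on small subunit genes, percent of nuclear reads on all members, and the ratio of large to small subunit reads, per mouse (open triangles for the first code run, filled circles for the second), with the mean and SD of each genotype as a bar; the axes do not start at 0. In the second code run the ratio is 1.27 to 1.28 in +/+ and 1.33 to 1.35 in KI/+ mice.

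**Figure D5:**
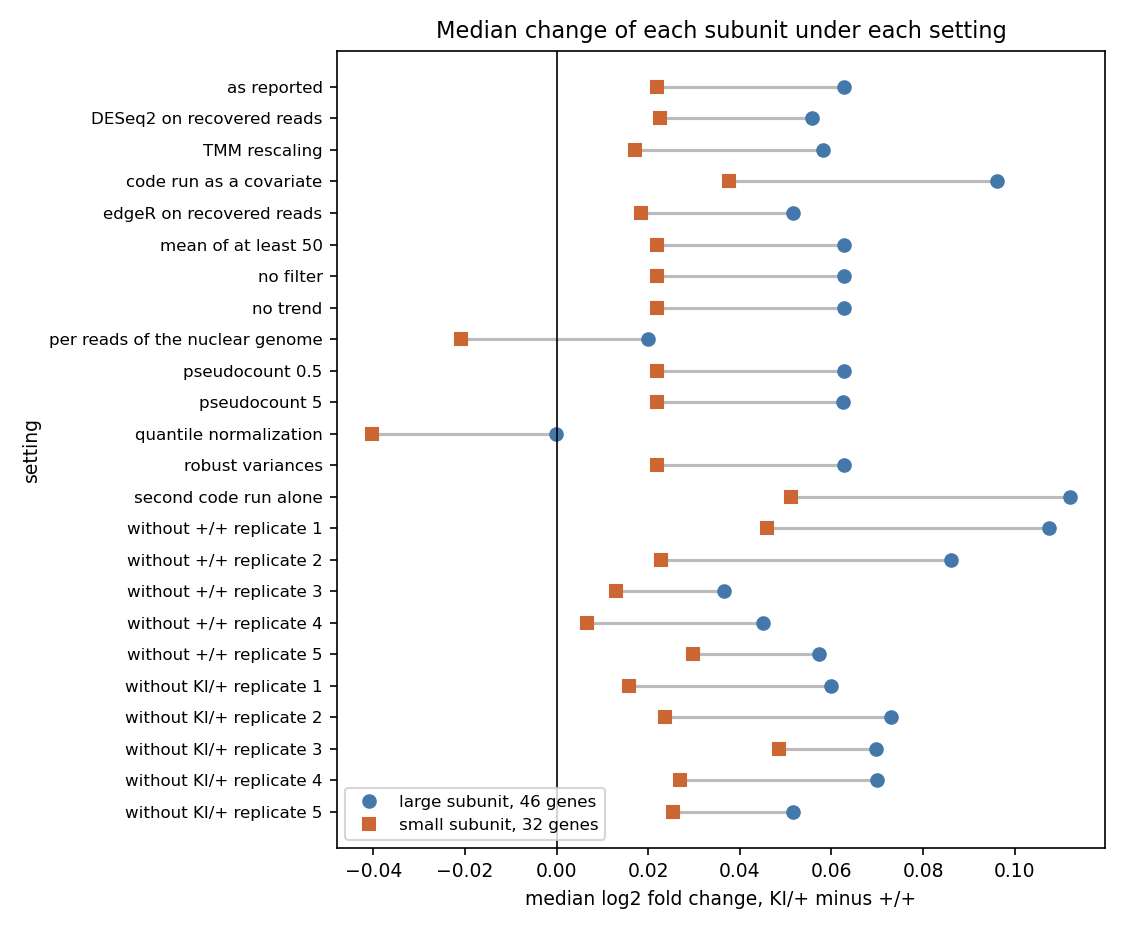
Median log2 fold change (KI/+ minus +/+) of the large subunit (circles) and small subunit genes (squares) as reported and under each of 23 alternative settings, the lines joining both medians of a setting. The large subunit median lies above that of the small subunit in each, and the small subunit median falls to -0.04 with quantile normalization. Filter, trend, variance, TMM and nuclear settings could not change the distance between the medians.

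Genes next to the members were compared in the same fit. Of the 8 symbols left out for their like endings, *Rpl22l1*, a paralog of *Rpl22*, had 470.4 ± 16.9 normalized counts in +/+ and 401.8 ± 53.1 in KI/+ mice (SD, n = 5 each), with a log2 fold change of -0.24 ± 0.10 (SE; limma, Benjamini-Hochberg adjusted p = 0.231). The log2 fold changes of the other 7, *Rpl7l1*, *Rps27l*, *Rpl36al*, *Rpl3l*, *Rps4l*, *Rpl32l* and *Rps12l1*, ranged from -0.17 to 0.16, and none passed. The last 2 of these are not in the list of related symbols and were added after their values were seen. *Rack1*, a scaffold protein on the small subunit, had a log2 fold change of 0.03 ± 0.08 (SE). Of the genes taken by their letters alone, *Rps19bp1* had a log2 fold change of 0.05 ± 0.11 (SE), *Rps23rg1* of 0.44 ± 0.24 (SE) and *Rpl37rt* of 0.09 ± 0.19 (SE), and none passed.

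In other lists of the translation machinery, limma called 0 genes. One list held 30 translation factors, genes with TOP messages and regulators of translation (3 at an unadjusted p under 0.05, median log2 fold change 0.01). The others held 59 ribosome biogenesis genes (7 at this p, median 0.01) and 18 genes of mTORC1 and translation control (2, median -0.04). In these lists edgeR called 0 genes and DESeq2 called *Rragc* alone. Over all tested genes, limma called 3.69% and DESeq2 4.91%, and 15.4% had an unadjusted p under 0.05 in limma. The 77 mitochondrial ribosomal protein genes, which serve the separate ribosome of the mitochondrion, had a median of 0.05 with 51 above 0, close to that of the members. Limma and edgeR called 0 of them, 5 had an unadjusted p under 0.05, and DESeq2 called *Mrps34*. Of 21 pseudogene symbols tested, 0 passed in limma, edgeR and DESeq2, and 2 had an unadjusted p under 0.05 in limma. With the code run as a covariate, 2 biogenesis genes (*Nhp2* and *Nop10*, both higher), 5 mitochondrial ribosomal genes (4 higher, 1 lower) and 2 pseudogene symbols passed. This fit called 6.30% of all tested genes.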

How the data were processed

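Whole kidneys of 10 mice were compared by genotype as labelled. Per the submitters' processing notes and the study's methods, the authors aligned QuantSeq reads to GRCm39 with TopHat2 2.0.10, Bowtie 1.0.0 and SAMtools 0.1.19, allowing mismatches and several hits per read, with strand-specific gene counting in HTSeq 0.6.1 on GENCODE annotation. The authors deposited a signal per gene, the count divided by a size factor. In each library 100% of values were whole reads within 0.01 once multiplied by the size factor. The lowest mean of a gene was 5.64, so rarer genes were not analysed here.

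Log2(value + 1) was tested with limma 3.58.1 in R 4.3.3 (trend, two-sided, no covariate) in genes that reached 10 in 5 or more mice, and p-values were adjusted by Benjamini-Hochberg at a threshold of 0.05. Fold changes on this scale understate those of low genes. edgeR 4.0.16 and DESeq2 1.42.0 were run on recovered reads. Other alternatives were pseudocounts of 0.5 and 5, filters, TMM, quantile and nuclear scaling, no trend, robust variances, the code run as a covariate, each mouse left out and, added after seeing the data, the second code run alone. The limma fit without covariate, edgeR and DESeq2 were run on a simulated data set without a code run. The other settings, among them the covariate fit, were not tested on simulated data. Medians over members and shares of reads on members have no test. Figures used python 3.11.15 and matplotlib 3.10.9. Members and lists were chosen with earlier results of these data known.

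Genes were named by rule: members past the threshold, the 6 highest and 4 lowest means, the 4 highest and 4 lowest changes per subunit, *Rps6*, the stalk, 5S particle and ubiquitin fusion genes, the related symbols outside the rule, and *Rragc*. Each library is 1 mouse, and p-values measure the spread between mice. Some genes that the rule covers are not reported here.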

Additional observations from a re-analysis of the deposited data

Results flagged for a closer look

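Values were examined for 1 mouse far from the other 4 of its genotype, by the gap to the nearest mouse over the range of the group against 0.71, in 84 groups of 5 mice, and 5 were flagged. By chance about 1 group in 20 is. *Rplp1* was highest in +/+ replicate 1, at 10890 normalized counts against 9460 to 9843 in the others (ratio 0.732). *Rps2* was lowest in +/+ replicate 3, at 690.6 against 904.3 to 976.5 (0.747). *Rps27a* was lowest in KI/+ replicate 3, at 1466 against 1689 to 1738 (0.819). Outside the members, *Rpl36al* was highest in +/+ replicate 1, at 1940 against 1766 to 1812 (0.736), and *Rpl37rt* was lowest in KI/+ replicate 1, at 34.1 against 56.3 to 64.2 (0.738). None of these genes passed the threshold in any fit.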

How the results depend on the processing

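The count of members called stayed at 0 in 21 of 23 alternative settings and rose to 10 with the code run as a covariate and to 2 in the second code run alone. Of all tested genes 3.69% were past the threshold, against 6.30% with the covariate, 2.21% without the trend and 2.24% to 3.53% when a mouse was left out. Members without overlap numbered 0, against 2 with quantile normalization (*Rps21* and *Rps28*, lower), 31 in the second code run and 0 to 6 when a mouse was left out. The 6 appeared without +/+ replicate 1. The shares over all genes with quantile normalization or with a mouse left out were not computed. Separation is easier for any gene with fewer mice, so these counts are not read as results about the members. The median log2 fold change of the small subunit was -0.040 with quantile normalization, against 0.022 as reported. With a mouse left out it was lowest without +/+ replicate 4 (0.0067), 0.013 without +/+ replicate 3, and higher without +/+ replicate 1 (0.046) and KI/+ replicate 3 (0.048). The large minus the small median, 0.041 as reported, was 0.021 without KI/+ replicate 3, 0.024 without +/+ replicate 3, 0.026 without KI/+ replicate 5, 0.062 without +/+ replicate 1 and 0.063 without +/+ replicate 2. The difference in the share of reads on members, 0.14 percentage points, was 0.34 in the second code run, 0.045 as a share of nuclear reads, 0.066 without +/+ replicate 3 and 0.223 without +/+ replicate 1. Without +/+ replicate 1 the large subunit median was 0.11, and without +/+ replicate 3 it was 0.04. Among 38 named genes, the 872 values under alternatives had another sign than reported in 45, in 13 genes, none of them called. The cause of these differences was not tested. No paired analysis was possible because the labels give no shared replicate numbers. With 5 mice per genotype and 1 KI/+ mouse in the first code run, small changes and the run cannot be resolved further.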
